A study of Homo sapiens with 28 samples.

Results

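The change in gene expression between 6 h and 24 h of arsenic trioxide was followed in 4 human cell lines of multiple myeloma: U266, MM.1s, KMS11 and 8226/S. The arrays were chosen by their titles, as those labelled with 24 hours of the compound and those labelled with 6 hours in the same line, which gives 8 of the 28 arrays of the series. Myeloma arises from plasma cells, which secrete antibodies and close the B lineage. Arsenic trioxide (ATO) was given at 2 µM in every line, so the 24 h group is 4 arrays of cells after 24 h at 2 µM and the 6 h group is 4 arrays of the same lines after 6 h at 2 µM. The rest of the series consists of 4 arrays after 48 h of ATO, 8 arrays of darinaparsin (DAR), an organic arsenical, after 24 h and 6 h, and 8 untreated arrays taken at 0 h. The DAR dose was 2 µM for 8226/S, 3 µM for both KMS11 and MM.1s, and 4 µM for U266. Each line has 1 array per compound and time, so a line is the replicate, and no untreated array was taken at 24 h. Time in culture and time on ATO can therefore not be told apart. The labels give no mutation or transgene for any line, and as a model each is a tumour cell population kept in culture.

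Trivalent arsenic binds pairs of neighbouring thiol groups, and so disturbs the folding of many proteins. Cells answer with the heat shock response, in which the transcription factor HSF1 switches on chaperone genes, with metallothioneins under the metal sensor MTF1, and with antioxidant genes under NRF2. HSF1 is held in check by the chaperones whose genes it induces, so heat shock transcripts are known to come and go quickly. Plasma cells also depend on the chaperones of the endoplasmic reticulum (ER), which fold the secreted antibody chains.

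Signals are in the scaled linear units of the deposited table, and values of the 4 lines are given in the order U266, MM.1s, KMS11 and 8226/S throughout. A change is the difference of log2(signal + 29), 24 h minus 6 h, with the standard error (SE) of the fit after ±, over n = 4 lines. Called genes are those with an adjusted p below 0.05, and the words rose and fell are kept for called genes. Overlap between the times is given as a description, since its share over all genes was not computed. The median signal of all probe sets was 111 to 147 on the 24 h arrays and 122 to 132 on the 6 h arrays. The untreated arrays numbered 2 are the ones given beside ATO, as their medians of 118 to 132 are like those of the ATO arrays, where those numbered 1 had 65.5 to 88.4 and the DAR arrays 76.3 to 109. The labels give no reason for this division. The ratio of 3′ to 5′ control probe sets of ACTB, a sign of RNA length, was 1.10 to 1.27 at 24 h and 1.03 to 1.11 at 6 h, and its part in the results was not tested. Plasma cell genes summed to signals of 76514 to 123034 at 24 h and 89216 to 154821 at 6 h over 19 genes. Markers of other cell types summed to 4648 to 16607 at 24 h and 4546 to 19941 at 6 h over 22 genes, of which 9 and 10 had a mean signal under 100. The T cell gene CD3D, the myeloid genes CD14, LYZ and S100A9 and the NK cell gene NKG7 were among those. The rest of the 22 markers, the larger part at both times, had a mean signal of 100 or more, so the genes named do not stand for the list.

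Of 19775 genes, 10 were called between 24 h and 6 h of ATO, or 0.0506%: 9 fell (0.0455%) and 1 rose (0.00506%). The genes that fell were the heat shock co-chaperone gene DNAJB1, the arsenite-inducible proteasome adaptor gene ZFAND2A, the metallothionein gene MT1E, the cold-inducible RNA-binding protein gene RBM3, the G protein signalling regulator gene RGS2, the transcription factor gene STAT4, the paraspeckle gene PSPC1, the rhomboid-family gene RHBDD2 and the mitochondrial ribosomal protein gene MRPL18. TBCK, which encodes a TBC domain protein with a kinase-like domain, rose. Each of the 10 moved the same way in 4 of 4 lines, and the smallest change among them was 0.76 on the log2 scale. Without adjustment 2179 genes (11.0%) had a p under 0.05, 1235 of them higher (6.25%) and 944 lower (4.77%), so unadjusted counts are read against these shares. No gene was called when U266 or when KMS11 was left out (2116 and 1503 at an unadjusted p under 0.05), 9 were called without MM.1s and 18 without 8226/S. With probe sets below the median level left out, 39 were called (14 higher, 25 lower), all 10 among them.

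**Figure D1:**
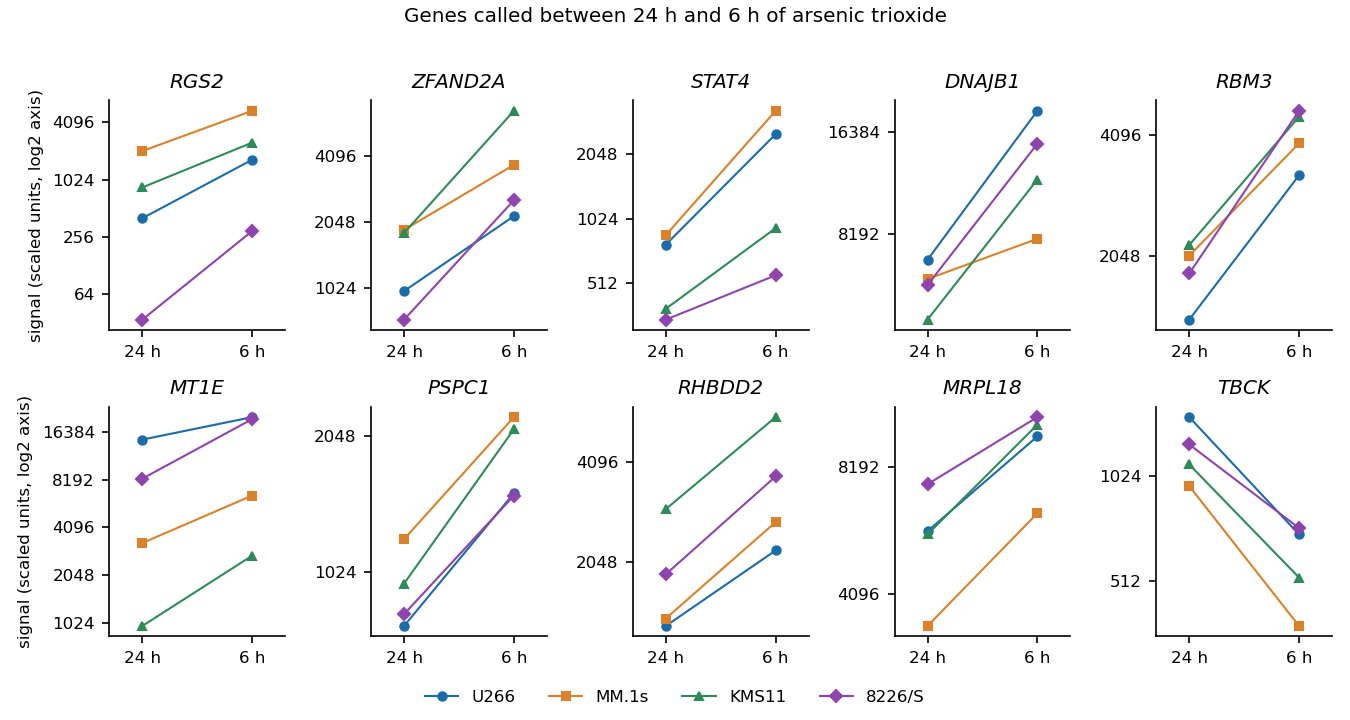
Signal of the 10 called genes at 24 h (left) and 6 h (right) of arsenic trioxide on a log2 axis, with 1 marker per array and a line joining the arrays of a cell line. DNAJB1, ZFAND2A, RBM3, PSPC1 and TBCK have no overlap between the times on these arrays, which also gave the calls. The share of all genes without overlap was not computed.

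RBM3 had signals of 1422, 2051, 2180.2 and 1852 at 24 h, against 3249, 3900.0, 4544 and 4698 at 6 h. All 4 lines were lower at 24 h, and the highest 24 h value lay below the lowest 6 h value. RBM3 fell by 1.12 on the log2 scale (SE 0.12, adjusted p = 0.0083), and its other probe set read -0.45. The untreated arrays numbered 2 stood at 1717, 2286, 1683 and 2198, close to the 24 h values, and those numbered 1 at 2807, 3591, 3326 and 2038, and both sets are below the 6 h value in every line. RGS2 had 400.0, 2045, 846 and 34.1 at 24 h, against 1655, 5428, 2509.8 and 293 at 6 h, a change of -1.81 (SE 0.20, adjusted p = 0.0083) and the largest in size among the 10. The lines differ so much in RGS2 level that the 2 groups overlap, with the change visible within each line. RHBDD2 fell to 1313, 1382, 2956 and 1879 at 24 h, against 2218, 2701, 5602 and 3711 at 6 h (-0.90 ± 0.09, adjusted p = 0.0083), and its 4 changes, -0.74, -0.95, -0.92 and -0.97, were nearly alike.

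ZFAND2A, whose protein binds the proteasome in arsenite-treated cells, had 996, 1885, 1824 and 739 at 24 h, against 2175, 3717, 6531 and 2568 at 6 h. The groups did not overlap, and the gene fell by 1.41 (SE 0.16, adjusted p = 0.00846), most in KMS11 and 8226/S. STAT4, which encodes a transcription factor of cytokine signalling, had 773, 857, 388 and 345 at 24 h, against 2535, 3259, 923 and 556 at 6 h (-1.35 ± 0.18, adjusted p = 0.0351). U266 and MM.1s were the lines with the highest STAT4 signal at 6 h and with the largest changes. MRPL18 fell to 5774, 3436, 5675 and 7465, against 9696, 6367, 10344 and 10779 at 6 h (-0.76 ± 0.09, adjusted p = 0.0161).

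PSPC1 fell to 777, 1211, 965 and 826 at 24 h, against 1531, 2261, 2125 and 1513 at 6 h (-0.95 ± 0.11, adjusted p = 0.0152). That value belongs to its brightest probe set alone, since its 5 probe sets ranged from -0.95 to 0.49 and 1 was called. TBCK had 1506, 956, 1103 and 1258 at 24 h, against 695, 380.2, 523 and 725 at 6 h, and rose by 1.04 (SE 0.15, adjusted p = 0.0481). It was the one called gene that stood below its untreated level at 6 h in 4 of 4 lines (1315, 718, 982 and 949.9 untreated), and at 24 h it stood above that level in 4 of 4. Of the 9 genes that fell, 8 were above the untreated array of their own line at 6 h in 4 of 4 lines, with RGS2 so in 3 of 4. Against the untreated arrays numbered 1 this held for 7 of the 9, and TBCK was below them at 6 h in 4 of 4 lines and above them at 24 h in 3 of 4. All 9 were also below the 6 h signal at 48 h in 4 of 4 lines. The 6 h arrays also chose these genes, and the 48 h arrays entered the fit. Shares over all genes were not computed, so these counts are a description.

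Over 14 other settings of the fit RBM3 and RGS2 were called under 10, RHBDD2 under 9, ZFAND2A and PSPC1 under 8, MRPL18 under 7, DNAJB1 and STAT4 under 6, TBCK under 5 and MT1E under 2, and none of the 10 changed direction.

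Among all 54613 probe sets 20 were called (0.0366%), 17 of them with 1 gene symbol. The 10 genes above account for 10, and 7 others were not the brightest of their gene. Of these 7, those of MT1F (-1.43), HSPH1 (-1.25, adjusted p = 0.0127), DNAJB1 (-1.11), SLC30A1 (-1.34), PDIA6 (-0.97) and ATP2C1 (-0.73) were lower at 24 h, and that of PON2, an antioxidant lactonase gene, was higher (0.91). The brightest probe set of ATP2C1, a Golgi calcium pump gene, read -0.27. Of 33 named genes with several probe sets, 14 have probe sets with changes of both signs: ASNS, CCND1, CYP19A1, DUSP1, EGR1, GDF15, IDI1, MCL1, NFIB, NQO1, PSPC1, RBFOX2, SLC30A1 and XBP1.

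The remaining 3 called probe sets were lower at 24 h in 4 of 4 lines, and they include the largest falls of all called probe sets. The probe set annotated with 3 symbols, and so given no gene name, had 451, 3734, 428 and 551 at 24 h, against 9786, 12612, 5354 and 11933 at 6 h (-3.51 ± 0.36, adjusted p = 0.0083). The probe set annotated with 2 symbols had 1940, 7561, 1583 and 1598 at 24 h, against 15173, 11603, 10299 and 11147 at 6 h (-2.26 ± 0.31, adjusted p = 0.038). In both MM.1s stayed highest at 24 h, and the times did not overlap. The third, unnamed here, had the smallest adjusted p of all (-1.47 ± 0.13, adjusted p = 0.00425).

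Heat shock genes carry binding sites of HSF1, which are arrays of short inverted units, and the promoters of called genes are shown for that reason. RefSeq's table for GRCh38.p14 gives a window from 250 bases before to 50 after the start of transcription for 8 of the 10 called genes, and none was matched for MT1E or RHBDD2. The motif searched was a pair of facing HSF1 units, GAANNTTC or TTCNNGAA, each of which reads the same on both strands. It was found in 5 of the 8 (DNAJB1, ZFAND2A, RBM3, MRPL18 and STAT4) and in 16 of 22 heat shock genes, against 15% of the 15383 measured genes with a window. HSPA6, the strictly inducible HSP70 gene, is shown beside 4 called genes. Each stretch is written 5′ to 3′ along its gene, lies before a start of transcription and has the matched letters in capitals.
DNAJB1 (chr19:14518427-14518484, minus strand): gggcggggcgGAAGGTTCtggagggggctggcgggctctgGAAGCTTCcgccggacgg
ZFAND2A (chr7:1160350-1160377, minus strand): gaccggacacTTCGAGAAgggaagtgga
RBM3 (chrX:48574440-48574467, plus strand): cgcgcaagggGAACGTTCcgggacgttc
MRPL18 (chr6:159789816-159789843, plus strand): ggaagaggttGAACCTTCgcctcaaacg
HSPA6 (chr1:161524456-161524488, plus strand): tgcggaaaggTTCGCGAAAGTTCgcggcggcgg
DNAJB1 holds separate matches and HSPA6 overlapping ones. The RBM3 stretch shows 1 of 3 matches before its start, and the HSPA6 stretch 2 of 3. BAG3 and HSPH1, whose windows were also searched, hold none of these letters. MRPL18 and DNAJB1 have more than 1 start in the table, and the MRPL18 stretch lies after another of its starts. A match is a run of letters and not a measured binding site. Letters of another motif, the metal response core given below, were also found in 5 of the 8 called genes.

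HSPH1, DNAJB1 and BAG3, the genes given as marks of the ATO response, were each lower at 24 h in 4 of 4 lines, and DNAJB1 was called. DNAJB1, an HSP40 that hands clients to HSP70, had signals of 6846, 6003, 4548 and 5762 at 24 h, against 18936, 7901, 11844 and 15119 at 6 h. The groups did not overlap, and DNAJB1 fell by 1.16 (SE 0.17, adjusted p = 0.0481), to a level 2.23-fold below that at 6 h. Untreated cells had 5211, 3904, 2995 and 4634, less than at 24 h in every line, and at 48 h the signals were 5347, 4809, 4672 and 5089.

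BAG3, a co-chaperone that links HSP70 to autophagy, had 2880.4, 3575, 2249 and 2909 at 24 h, against 10419, 4607, 9626 and 8705 at 6 h, again without overlap (-1.47 ± 0.22, adjusted p = 0.0578). HSPH1, an HSP110 that recharges HSP70, had 5042, 8209, 8104 and 11325 at 24 h, against 14880.0, 10683, 19432 and 19582 at 6 h. Its groups overlap, because 8226/S at 24 h lay above MM.1s at 6 h (-0.995 ± 0.16, adjusted p = 0.0649 for the brightest of 3 probe sets). MM.1s had the smallest change of the 4 lines in each of these genes: -0.39 for DNAJB1, -0.36 for BAG3 and -0.38 for HSPH1, where those of the other lines lay between -0.79 and -2.08. Without MM.1s the changes were -1.41, -1.83 and -1.20, and all 3 genes were called (adjusted p = 0.00471, 0.00101 and 0.0364). With any other line left out none of the 3 was called (adjusted p = 0.113 to 0.54).

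**Figure D2:**
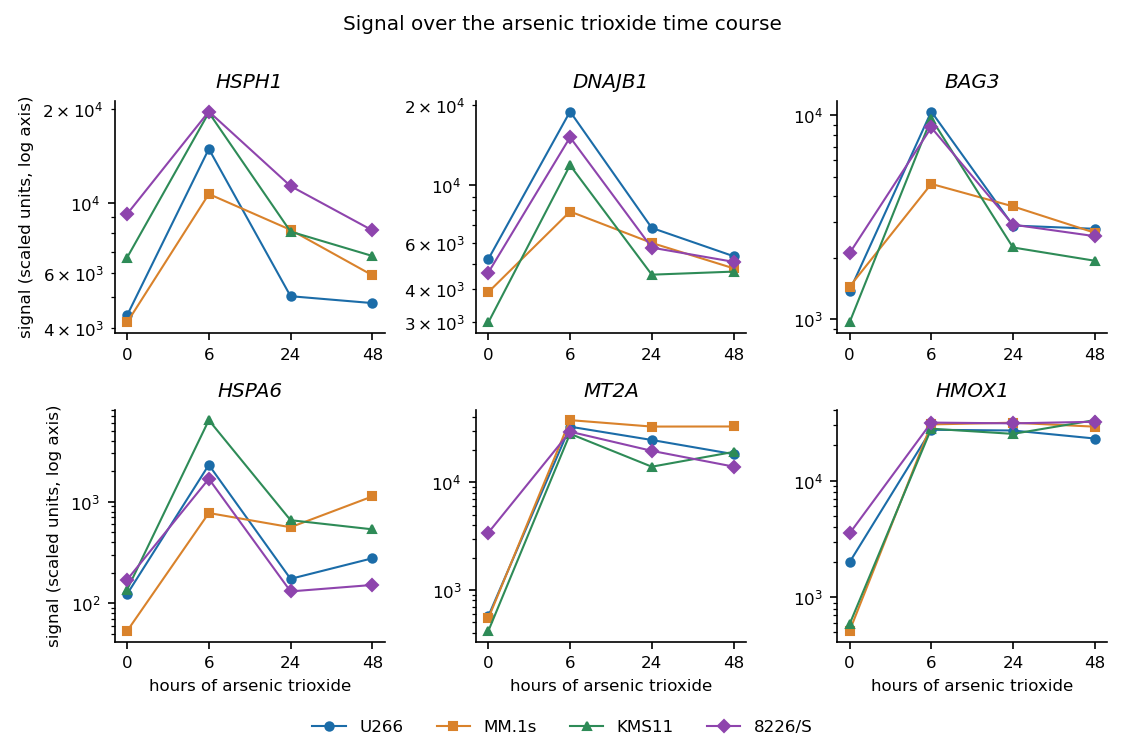
Signal of 3 heat shock marks, HSPA6, MT2A and HMOX1 on a log axis in untreated cells (0, the untreated array numbered 2 of each line) and after 6, 24 and 48 h of arsenic trioxide, evenly spaced, with 1 line of markers per cell line. HSPH1, DNAJB1 and BAG3 peak at 6 h in the 4 lines, with the lowest peak in MM.1s, and HMOX1 stays near its 6 h level.

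HSPA6 had 174, 561, 658 and 131 at 24 h, against 2305, 775, 6357 and 1681 at 6 h, and the groups did not overlap. Its changes were -3.52, -0.45, -3.22 and -3.42, so U266, KMS11 and 8226/S lost most of the 6 h signal and MM.1s little (-2.65 ± 0.52, adjusted p = 0.124). Without MM.1s the change was -3.39 and was called (adjusted p = 8.5e-05), and with any other line left out it was not (adjusted p = 0.256 to 0.562). At 48 h MM.1s stood at 1128, above its own 6 h value of 775, while the other 3 lines stood at 152 to 535. HSPA6 on the untreated arrays numbered 2 was between 53.4 and 171.

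Over the 26 heat shock genes measured, 24 were lower at 24 h, 17 of them in 4 of 4 lines. Across all 19775 genes 9052 were lower and 10723 higher, with 7.82% lower and 10.6% higher in 4 of 4 lines. Direction counts of this and the other lists are read against these. DNAJB1 was the member called on its brightest probe set, and 15 were lower at an unadjusted p under 0.05. Of the 33 genes listed 7 have no probe set of that single symbol and are not among the 26. These 7 include HSPA1A and HSPA1B, the main inducible HSP70 genes, and HSPA8, the constitutive one. Whether the called probe sets annotated with 3 and with 2 symbols read any of these genes was not examined. The median change was -0.43, against 0.02 over all genes, and by line it was -0.55, -0.21, -0.60 and -0.47. Beside the genes above, and chosen after their values were seen, the small heat shock protein gene HSPB1 changed by -1.48 ± 0.23 (adjusted p = 0.0597), and unlike the other large changes its own was greatest in MM.1s (-1.18, -2.53, -1.33 and -0.86). The HSP70 to HSP90 adaptor gene STIP1 changed by -0.61 ± 0.10 (adjusted p = 0.0855), and HSPE1, the mitochondrial co-chaperonin gene, by -0.57 ± 0.12 (adjusted p = 0.141). HSP90AA1, the inducible HSP90 gene, was at 23082, 20249, 24865 and 26064 at 24 h, against 25392, 26638, 26616 and 26846 at 6 h (-0.17 ± 0.13), and HSP90AB1 changed by -0.01. The members higher at 24 h were HSF1 itself (0.24 ± 0.12, higher in 4 of 4 lines, adjusted p = 0.586) and CRYAB (0.28 ± 0.32).

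Metallothionein and metal transport genes were lower at 24 h in 8 of 11 cases, 7 of them in 4 of 4 lines, with a median change of -0.74. MT1E was the member called on its brightest probe set, and 7 were lower at an unadjusted p under 0.05. MT1E, a cysteine-rich metal-binding protein gene, had 14644, 3257, 976 and 8303 at 24 h, against 20306, 6496, 2709.6 and 19726 at 6 h. Every line was lower at 24 h, KMS11 most, and the groups overlap because the lines differ in level; the gene fell by 1.04 (SE 0.15, adjusted p = 0.0474). Its untreated signals were 47.0, 212, 208 and 570.3, so the 24 h signals still lay far above them. The metallothionein genes are near-identical in sequence, and a probe set may read several of them.

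MT2A, the most widely expressed metallothionein gene, had 24631, 32800.1, 13918 and 19529 at 24 h, against 32721, 37641, 28111 and 29389 at 6 h and 571, 545, 416 and 3397 in untreated cells (-0.55 ± 0.16, adjusted p = 0.292). Its probe set ranked 14 to 438 in brightness at 24 h and 2 to 50 at 6 h, near the top of the arrays' range, and what that does to its change was not tested. MT1X changed by -0.74 ± 0.19 (adjusted p = 0.211), with changes of -0.49, -0.28, -1.30 and -0.88. SLC30A1, the zinc exporter gene under the same metal sensor, had 5606, 6792, 4797 and 1675 at 24 h, against 7954, 10361, 11087 and 5224 at 6 h. It was lower in 4 of 4 lines, most in 8226/S (-0.98 ± 0.17, adjusted p = 0.0855), and of its other, dimmer probe sets 1 was called (-1.34, adjusted p = 0.0474) and 1 read 0.04. The zinc importer gene SLC39A10, chosen after its value was seen, ran the other way, at 179, 550.3, 1295 and 1921 at 24 h against 171, 369, 599.8 and 929 at 6 h (0.67 ± 0.18, adjusted p = 0.23).

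The core letters of the metal response element are TGCACNC or TGCGCNC on either strand. They were found in 5 of 7 genes of this group with a window and in 40.9% of measured genes. Beyond this group they were in 5 of 8 called genes and 12 of 22 heat shock genes with a window. The stretch of MT2A before its start is shown with those letters in capitals, as an example of this group.
MT2A (chr16:56608520-56608583, plus strand): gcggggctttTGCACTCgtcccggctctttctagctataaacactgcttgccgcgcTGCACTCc
The stretch holds 2 of the 7 matches before the MT2A start, and such short letters occur by base composition in many promoters.

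Chaperone and secretory genes of the ER were lower at 24 h in 31 of 31 measured members, 21 of them in 4 of 4 lines. None was called by limma on its brightest probe set, and 19 were lower at an unadjusted p under 0.05. A dimmer probe set of the member PDIA6 was called (-0.97, adjusted p = 0.0209). The median change was -0.44, close to that of the heat shock genes, but the order of the lines was another: -0.39, -0.58, -0.54 and -0.22, with the smallest value in 8226/S. No line stood at the other end for every gene, as MM.1s had the largest change for PDIA4 and U266 for HSP90B1. Members of this list share a regulator and a compartment, so their changes are not independent of each other.

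HSPA5, the ER HSP70 known as BiP, had 9299.7, 8838, 7276 and 14682 at 24 h, against 17062, 12305, 9137 and 15753 at 6 h (-0.44 ± 0.16, adjusted p = 0.41). HSP90B1, the ER member of the HSP90 family, had 2197, 3146, 4055 and 3434 at 24 h, against 5415, 7172, 6074 and 4543 at 6 h (-0.86 ± 0.18, adjusted p = 0.139). The times overlap for HSPA5 and do not for HSP90B1, and each gene has its smallest change in 8226/S. Members other than HSPA5 and XBP1 are named after their values were seen.

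PDIA4, a disulfide isomerase gene, had 1664, 1855, 2759 and 4045 at 24 h, against 2919.7, 5251, 5466 and 5242 at 6 h (-0.91 ± 0.15, adjusted p = 0.0684). SEC24D, a coat gene of vesicles that leave the ER, changed by -0.99 ± 0.22, SDF2L1 by -0.88 ± 0.24, the co-chaperone gene DNAJC3 by -0.56 ± 0.13 and the translocon gene SSR1 by -0.60 ± 0.12 (adjusted p = 0.141 to 0.244). Among the stress sensors EIF2AK3, the kinase PERK, changed by -0.75 ± 0.17, ATF6 by -0.17 ± 0.23 and ERN1, the kinase IRE1, by -0.03 ± 0.23. XBP1, the factor that IRE1 activates by splicing, was at 7165, 9735, 8111 and 5730.3 at 24 h, against 8025, 15379.8, 8934 and 6792 at 6 h (-0.30 ± 0.17, adjusted p = 0.657).

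**Figure D3:**
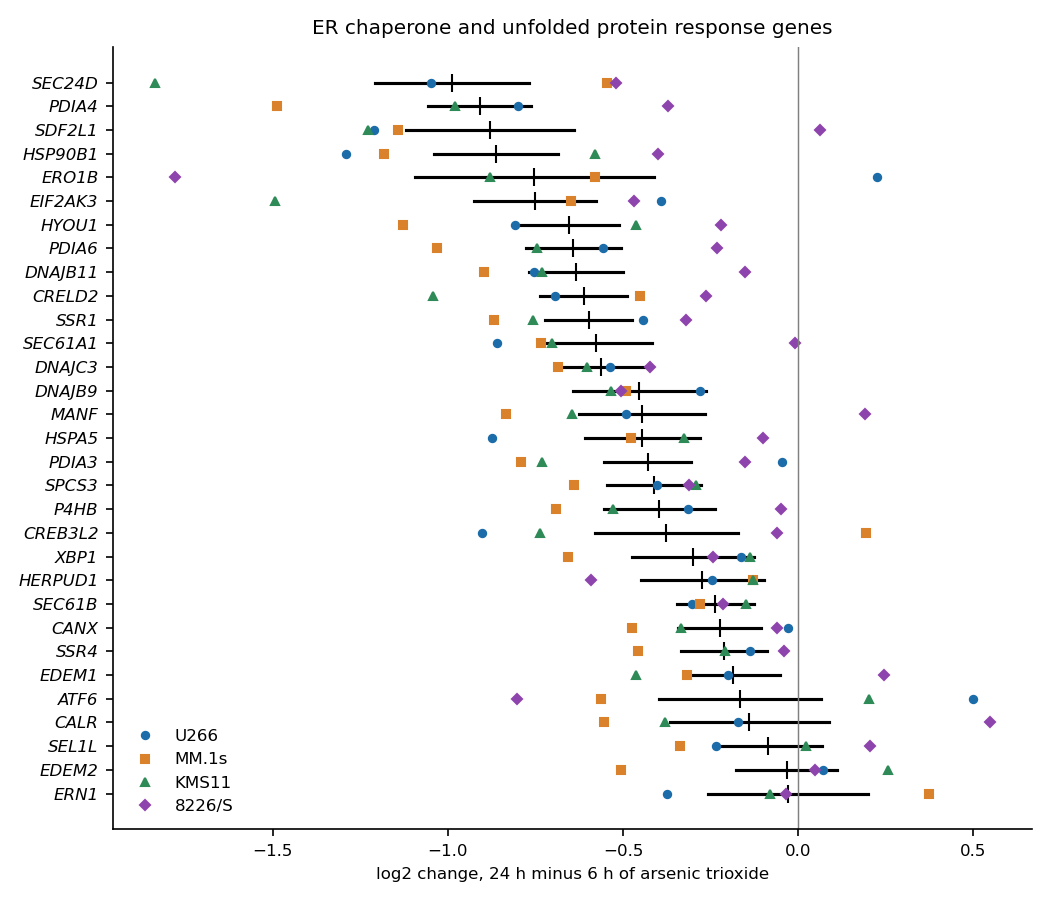
Change between 24 h and 6 h of arsenic trioxide of 31 ER chaperone and unfolded protein response genes on the log2 scale, with 1 coloured marker per cell line, a tick for the fitted change and a bar of 1 SE to each side. The fitted change is below 0 for all 31, and the 8226/S markers lie nearest 0 for many of the larger changes.

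The ER stress element, CCAAT and CCACG with 9 bases between them, on either strand, marks the promoters of classical ER chaperones. It was found in 8 of 29 members with a window (CALR, CANX, CRELD2, ERO1B, HSP90B1, HSPA5, PDIA6 and XBP1), against 0.117% of measured genes, which is 18 of 15383. Stretches of 3 of them are shown with the element in capitals, 1 with the element on the gene's own strand and 2 with it on the other, and for HSP90B1 it is 1 of 2 matches.
HSPA5 (chr9:125241381-125241419, minus strand): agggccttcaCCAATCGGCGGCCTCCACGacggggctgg
HSP90B1 (chr12:103930311-103930349, plus strand): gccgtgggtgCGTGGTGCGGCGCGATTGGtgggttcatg
CRELD2 (chr22:49918544-49918582, plus strand): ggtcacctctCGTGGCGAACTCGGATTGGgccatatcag
The 8 members with the element and the 21 without it were all lower at 24 h, as the whole list was.

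Genes of the plasma cell program were mixed: 16 of 19 were lower, 6 of them in 4 of 4 lines, the median change was -0.14 and none was called (4 lower and 0 higher at an unadjusted p under 0.05). MZB1, an ER chaperone of antibody assembly, had 28.3, 3662, 496 and 9144 at 24 h, against 205, 11162, 3666 and 10465 at 6 h. Its signal was lower in 4 of 4 lines, with changes of -2.03, -1.60, -2.82 and -0.19, the smallest in 8226/S (-1.66 ± 0.36, adjusted p = 0.149). Without 8226/S it was -2.15 and was called (adjusted p = 0.0411), and with any other line left out it was not (adjusted p = 0.352 to 0.624). The U266 signal of MZB1 at 24 h is near the offset of 29, and its change over the lines was -1.42 at an offset of 100. At both times MZB1 was above the untreated arrays of either set in 0 of 4 lines. TNFRSF17, the receptor BCMA, had 6871, 4957, 1395 and 469 at 24 h, against 7798, 8457, 4942 and 1022 at 6 h and 12934, 16473, 7288 and 1454 in untreated cells (-0.96 ± 0.23, adjusted p = 0.199). FKBP11, an ER folding enzyme gene named after its value was seen, changed by -1.43 ± 0.25 (adjusted p = 0.0954). In contrast the transcription factor gene IRF4 was at 3815, 5061, 5959 and 3936 at 24 h, against 5152, 4910.4, 5038 and 3651 at 6 h (-0.01 ± 0.16). In bulk RNA such as this, fewer cells with a transcript and less of it per cell cannot be told apart.

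Immediate early genes, which answer stress kinases within minutes to hours, were lower at 24 h in 23 of 31 cases, with 11 lower at an unadjusted p under 0.05, 0 higher and a median of -0.34. None was called. ATF3, a stress-induced repressor of the ATF family, had 1619, 3174, 3479 and 846 at 24 h, against 2849, 6545, 10199.8 and 1332 at 6 h (-1.01 ± 0.16, adjusted p = 0.0649). KMS11 had both the highest 6 h value and the largest change, and without 8226/S the gene was called (-1.13, adjusted p = 0.0411). With any other line left out ATF3 was not called (adjusted p = 0.24 to 0.54). JUN had 1338, 2506, 1740.4 and 1614 at 24 h, against 1653, 3795, 4856 and 2446 at 6 h (-0.74 ± 0.17, adjusted p = 0.161), and DUSP1, a phosphatase of stress kinases, changed by -0.64 ± 0.19. FOS was at 39.2, 13.6, 11.2 and 22.9 at 24 h, against 55.8, 32.7, 43.5 and 63.6 at 6 h, below the untreated arrays numbered 2 (1996, 820.1, 135 and 424). The untreated arrays numbered 1 had 15.3, 11.9, 32.2 and 142, lower than 6 h in 3 of 4 lines, so the place of FOS relative to untreated cells depends on the set. EGR1 changed by 0.05 ± 0.20, higher in 3 of 4 lines.

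Genes of the amino acid and integrated stress response under ATF4 were lower in 27 of 32 cases, with a median of -0.20 that ran from -0.58 in 8226/S to 0.20 in MM.1s. None was called (6 lower and 0 higher at an unadjusted p under 0.05). ASNS, the asparagine synthetase gene, had 6043, 2188, 2737 and 2983 at 24 h, against 7210.1, 2555, 5861 and 5412 at 6 h (-0.60 ± 0.19, adjusted p = 0.309). Its other probe set read 0.34, and the mean of both was -0.13. The death-linked factor gene DDIT3 was at 1257, 957, 1327 and 360.1 at 24 h, against 1242, 646, 1383 and 653 at 6 h (-0.08 ± 0.21), higher in MM.1s and lower in 8226/S, and without 8226/S its change was 0.17. TRIB3 changed by -0.21 ± 0.23 and PPP1R15A, which reverses the translation block, by -0.27 ± 0.13.

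**Figure D4:**
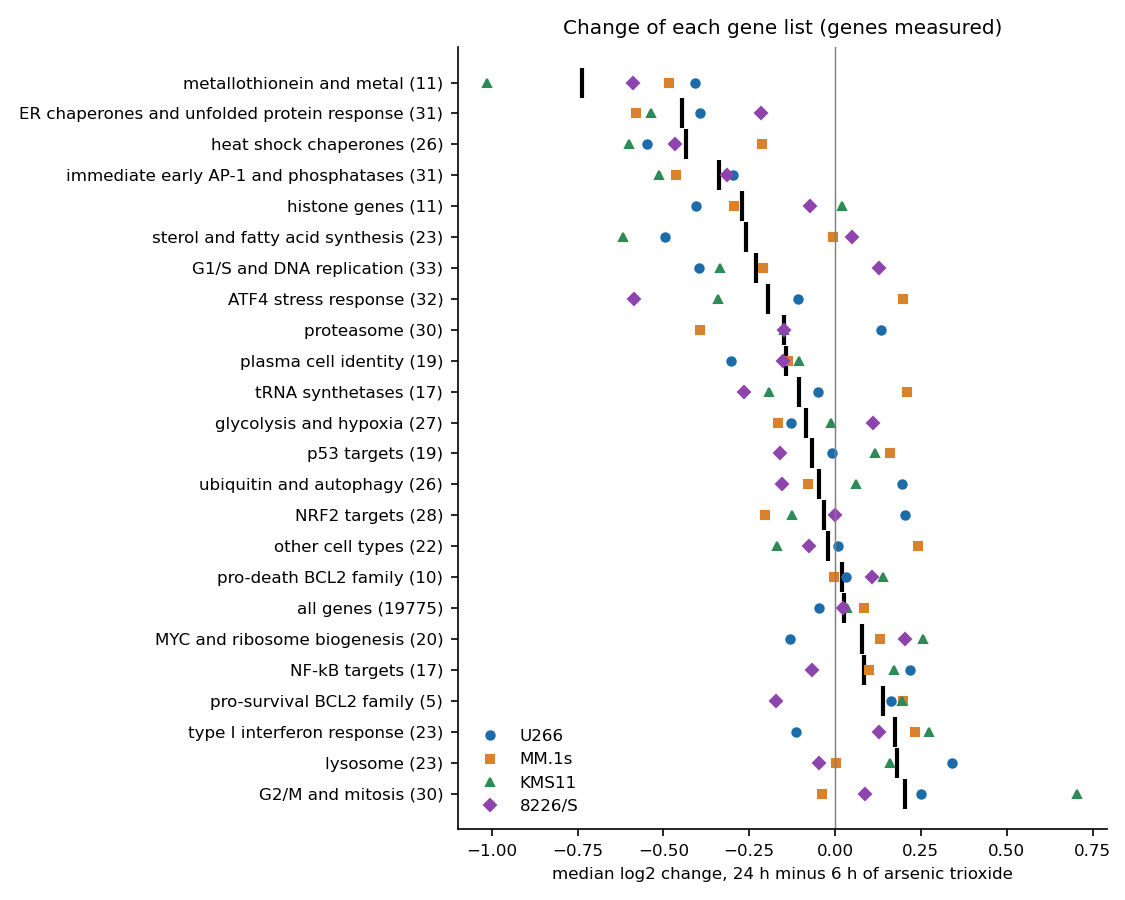
Median log2 change between 24 h and 6 h of arsenic trioxide of each gene list, with the number of genes measured in brackets, a black tick for the median of fitted changes and a coloured marker for the median in each cell line. Metallothionein, ER and heat shock lists lie lowest, and the G2/M list lies highest with KMS11 at 0.71.

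Of 33 genes of G1/S and DNA replication 29 were lower at 24 h (median -0.23), with line medians of -0.40, -0.21, -0.34 and 0.13. Of 30 genes of G2/M and mitosis 26 were higher (median 0.20), with line medians of 0.25, -0.04, 0.71 and 0.09. None of either list was called. At an unadjusted p under 0.05, 5 replication genes were lower and 1 mitosis gene was higher, shares of 33 and 30 that are read against 4.77% and 6.25% over all genes. Without KMS11 the G2/M median was 0.08. CCND1, the cyclin D1 gene that is most highly expressed in U266, was at 2449.9, 138, 261 and 399 at 24 h, against 3298, 202, 334 and 169 at 6 h, with 8226/S alone higher. MYC was at 88.3, 12777, 4179.9 and 12965 at 24 h, against 94.5, 11042, 1218 and 11170.4 at 6 h, so the mean of 0.53 rests on KMS11 (adjusted p = 0.563). The cell cycle inhibitor gene CDKN1A changed by -0.37 ± 0.25 (changes -0.12, 0.32, -1.17 and -0.50).

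Among protein degradation genes ZFAND2A was the one called. Proteasome subunits were lower in 25 of 30 cases with a median of -0.15, and the line medians were 0.13, -0.39, -0.15 and -0.15. At an unadjusted p under 0.05, 10 were lower and 0 higher, and none was called. Ubiquitin and autophagy genes had 6 higher and 4 lower at that level and a median of -0.05, and lysosomal genes 4 higher and 1 lower with a median of 0.18. OPTN, an autophagy receptor gene, changed by 0.49 ± 0.12 and GABARAP, an autophagosome gene, by 0.35 ± 0.09, each higher in 4 of 4 lines, chosen after their values were seen (adjusted p = 0.204 and 0.23).

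Sterol and fatty acid synthesis genes had 18 of 23 lower and a median of -0.26, with line medians of -0.49, 0.00, -0.62 and 0.05. None was called, and 7 were lower and 1 higher at an unadjusted p under 0.05. INSIG1, a sterol-regulated brake on this pathway, was at 1332, 2138, 5118 and 5300.0 at 24 h, against 2972, 3145, 6452 and 4675 at 6 h (-0.46 ± 0.26), both below the 10142, 17032, 17054 and 12339.7 of the untreated arrays numbered 2. Against those numbered 1, at 1828, 4291, 4767 and 4162, the lines differ in whether they are higher or lower. IDI1, an isoprenoid enzyme gene, changed by -0.13 ± 0.18. DHCR7, the last enzyme of cholesterol synthesis, changed by -1.01 ± 0.25 and ELOVL6, a fatty acid elongase gene, by 0.82 ± 0.15, both alike in 4 of 4 lines and chosen after their values were seen (adjusted p = 0.201 and 0.11).

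Of the genes of cell death BMF, which encodes a BH3-only protein that binds BCL2 proteins, had 1074, 3312, 2804 and 615 at 24 h, against 655, 2457, 1248 and 472 at 6 h. It was higher in 4 of 4 lines (0.66 ± 0.13, adjusted p = 0.137), and the lines overlap because their levels differ. PMAIP1, the gene of NOXA, was at 1177, 2239, 5884 and 3214 at 24 h, against 1553, 883, 7402 and 5268 at 6 h, higher in MM.1s and lower in the other 3. MCL1, which NOXA binds, was at 11021, 12849, 11584 and 3494 at 24 h, against 9956, 14151, 9551 and 4003 at 6 h (0.02 ± 0.12). GDF15, a stress cytokine gene, changed by 0.44 ± 0.35 and was lower in 8226/S alone. The remaining lists had medians between -0.27 for histone genes and 0.17 for interferon response genes, and none of their members was called. In order of median they were histone genes (11 measured, 1 lower and 0 higher at an unadjusted p under 0.05), transfer RNA synthetases (17 measured, 1 and 1), glycolysis and hypoxia genes (27 measured, 3 and 4), p53 targets (19 measured, 1 and 1), markers of other cell types (22 measured, 1 and 1), pro-death BCL2 family genes (10 measured, 0 and 2), MYC and ribosome biogenesis genes (20 measured, 0 and 3), NF-kB targets (17 measured, 0 and 1), pro-survival BCL2 family genes (5 measured, 0 and 0) and interferon response genes (23 measured, 2 and 3).

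Targets of NRF2 had no common direction, with 15 of 28 lower, 13 higher and a median of -0.03. None was called, and 6 were lower and 3 higher at an unadjusted p under 0.05. The antioxidant element, TGACNNNGC on either strand, was found in 8 of 22 NRF2 targets with a window. It was also in 4 of 7 metal genes, 7 of 22 heat shock genes and 3 of 8 called genes, against 18.4% of measured genes. HMOX1, heme oxygenase, had 26819, 31285, 25091 and 30875 at 24 h, against 27208, 30249, 27792 and 31358 at 6 h and 1992, 513, 587 and 3517 in untreated cells. Its change between 24 h and 6 h was -0.04 ± 0.12 (adjusted p = 0.968), and no line moved by more than 0.15. The HMOX1 probe set ranked 32 to 108 in brightness at 24 h and 28 to 68 at 6 h on its arrays, whose highest signals were 32110 to 41247 at 24 h and 32918 to 38587 at 6 h, and what a signal so near the top of the range does to a change was not tested. GCLM, of glutathione synthesis, had 8066, 5311, 5711 and 6139 at 24 h, against 9083, 6586, 9046 and 8488 at 6 h (-0.40 ± 0.10, adjusted p = 0.204), and SRXN1 changed by -0.57 ± 0.14. NQO1, a quinone reductase gene, was at 5119, 5251, 12062 and 10138 at 24 h, against 3496, 6327, 6845 and 7134 at 6 h, higher in 3 of 4 lines (0.40 ± 0.17). BLVRB, a biliverdin reductase gene chosen after its value was seen, changed by 1.08 ± 0.20 and was higher in 4 of 4 lines (adjusted p = 0.11).

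The same interval was measured under DAR, in which dimethylated arsenic is joined to glutathione, and the difference between the changes under ATO and under DAR was tested on 20 treated arrays. Doses differ in 3 of the 4 lines, and 2 µM of both compounds was used in 8226/S alone. The compounds also lie on opposite sides of the division of arrays by median signal, so in their difference compound and array set cannot be told apart. Within DAR the ACTB ratio of 3′ to 5′ probe sets was 1.69 to 2.19 at 24 h and 1.28 to 1.52 at 6 h. On the ATO arrays it was 1.10 to 1.27 and 1.03 to 1.11. Its part in the DAR changes and in the differences between compounds was not tested. The test called 39 genes (0.197%), 20 with a positive and 19 with a negative difference. HMOX1 had the largest: under DAR it was at 3694, 502, 971 and 9978 at 24 h, against 24626, 2969, 19202 and 17856 at 6 h. Its change was -0.04 under ATO and -2.58 under DAR, a difference of 2.55 (SE 0.44, adjusted p = 0.0233). In 8226/S, where the doses match, the changes were -0.02 under ATO and -0.84 under DAR.

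JUN changed by -0.74 under ATO and -2.34 under DAR (difference 1.60, SE 0.28, adjusted p = 0.0233), where it was at 2073, 2332, 953 and 5261 at 24 h, against 10626, 13454, 7724 and 15133 at 6 h. DNAJB2, an HSP40 gene, changed by -0.55 under ATO and -2.16 under DAR (difference 1.60, adjusted p = 0.0464). BACH2, a B cell repressor of the BACH family, changed by 0.27 and -1.41 (difference 1.69, adjusted p = 0.0172). The aromatase gene CYP19A1 (0.04 under ATO, -1.77 under DAR) and the transcription factor gene NFIB (0.41 under ATO, -1.41 under DAR) also differed, with adjusted p = 0.0443 and 0.0498, and both have signals under 100 on some arrays. RBFOX2, a splicing regulator gene, differed the other way (-0.19 under ATO, 1.62 under DAR, difference -1.81, adjusted p = 0.017). Leaving out a line left 0 called genes for U266, MM.1s and KMS11 (2056, 1728 and 1726 at an unadjusted p under 0.05) and 16 for 8226/S. Over 8 other settings of this test BACH2 was called under 5, RBFOX2 under 4, HMOX1 and JUN under 3, and CYP19A1, DNAJB2 and NFIB under 1.

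**Figure D5:**
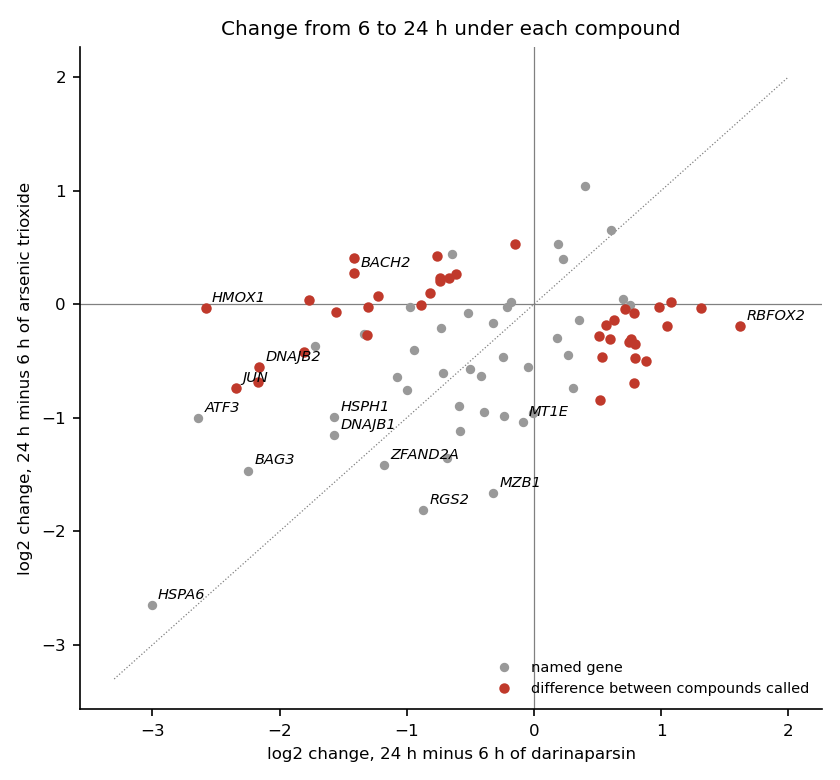
Log2 change between 24 h and 6 h under arsenic trioxide (vertical axis) and under darinaparsin (horizontal axis), with grey points for genes named in the text and red points for the 39 genes whose changes differ between the compounds, and a dotted line of equal change. HMOX1 lies near 0 on the vertical axis and at -2.58 on the horizontal one, while HSPA6 and DNAJB1 lie near the line.

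None of the 10 genes called under ATO was called in the difference between the compounds. DNAJB1 changed by -1.16 under ATO and -1.57 under DAR (difference 0.42 ± 0.25 SE, adjusted p = 0.598), and RBM3 by -1.12 and -0.58 (difference -0.53 ± 0.21, adjusted p = 0.367). MT1E was at 69.4, 62.8, 25.3 and 184 at 24 h of DAR, against 80.5, 71.0, 26.2 and 193 at 6 h of DAR, signals far below those under ATO, and its difference of -0.95 ± 0.21 had an adjusted p of 0.0671. Under DAR itself 882 genes were called between 24 h and 6 h (4.46%), 439 higher (2.22%) and 443 lower (2.24%). The DAR count comes from the fit of 20 treated arrays, in which both compounds share 1 residual spread. The count of 10 under ATO comes from the separate fit of 12 ATO arrays. Setting these counts side by side is not a test of a larger response, since fits, doses and the ACTB ratios of the arrays differ.

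Among 14549 genes with a mean signal of 100 or more at either time, the number at least 2-fold higher and lower at 24 h was 312 and 544 in U266, 642 and 304 in MM.1s, 431 and 481 in KMS11, and 444 and 383 in 8226/S. Pearson's r between the changes of 2 lines across these genes was 0.018 to 0.229 over the 6 pairs, lowest for U266 with 8226/S and highest for MM.1s with KMS11, where genes are not independent replicates. With 1 array per line and time, a line's own change has no replicate.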

How the data were processed

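Total RNA was read on 28 Affymetrix HG-U133 Plus 2.0 arrays, and the 12 ATO arrays enter the main comparison. The deposited values are linear intensity signals, made by the authors with GCOS, per the submitters' processing notes. The GCOS version was not given in these sources. The mean of each array, trimmed by 2% at both ends, is near 500, as after scaling to 1 target. Such scaling removes any change in total RNA.

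Values were taken as log2(value + 29). All 54613 probe sets other than array controls were fitted, with no filter, by limma 3.58.1 (lmFit, and eBayes with a variance trend) in R 4.3.3, with time and cell line as terms, two-sided, with Benjamini-Hochberg adjustment of p over all probe sets. The brightest probe set with a single symbol stands for a gene (41097 of 54675 probe sets have 1, 1801 several and 11777 none). ATO and DAR changes were compared on 20 arrays with line by compound as blocks. Lines pair the arrays: same-line deviations from group means correlated at 0.777 on average (lowest 0.703).

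Named genes are the 12 largest rises and falls among called genes, up to 4 called members per list and direction, 38 genes of a fixed set where measured, and the 6 largest called ATO to DAR differences. The 23 lists, their members and the comparison were chosen with earlier results of these data known. Some list members are not analysed here. Nothing says that the arrays of a line came from separate cultures, and p-values measure the spread between lines. Alternatives were other arrays, offsets, scalings, filters, probe set rules and each line left out. The number of arrays limits the precision.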

Additional observations from a re-analysis of the deposited data

Results flagged for a closer look

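Among 72 results with a value in each line (the named genes and the list medians), 5 had 1 line far from the other 3, where chance alone gives about 5% of such sets of 4. The count of 5 in 72 is near that share, so the lines named below are a description. MM.1s stood apart for HSPA6, with a change between 24 h and 6 h of -0.45 against -3.52 to -3.22 in the other lines, and for DNAJB1, with -0.39 against -1.46 to -1.38. KMS11 stood apart for MYC, with 1.75 against -0.07 to 0.21. 8226/S stood apart for CCND1, with 1.11 against -0.47 to -0.32, and for the median of the pro-survival BCL2 family, with -0.17 against 0.16 to 0.20. Each rests on 1 array per line and time.

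The changes under ATO and under DAR differed by test for 7 named genes. The differences, ATO minus DAR, were 2.55 for HMOX1, 1.82 for NFIB, 1.80 for CYP19A1, 1.69 for BACH2, 1.60 for DNAJB2, 1.60 for JUN and -1.81 for RBFOX2. Of these, 6 were named for being among the largest differences called, so their size is a description.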

How the results depend on the processing

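Counts of genes called between 24 h and 6 h of ATO (10, 1 higher and 9 lower) depended on the setting. They were 2 (0 higher, 2 lower) on the 8 arrays alone, 17 (3 and 14) with the untreated arrays numbered 2, 8 (3 and 5) on all 28 arrays, 11 (1 and 10) at an offset of 16, 6 (0 and 6) at an offset of 100, 9 (0 and 9) with median centring, 6 (0 and 6) with quantile normalization, 39 (14 and 25) with dim probe sets left out, and 7 (0 and 7) with probe sets averaged. With no replicate block for the paired lines 0 were called by limma (0 higher, 0 lower, 341 at an unadjusted p under 0.05). Leaving out 1 line gave 0 to 18 (0 to 5 higher, 0 to 13 lower), with 0 without U266 and without KMS11. The 39 genes called between the ATO and DAR changes became 7 with 1 line block for both compounds, 5 with quantile normalization, 106 with dim probe sets left out, 33 at an offset of 100, and 0 to 16 with 1 line left out. The cause was not tested, except that fewer arrays or fewer probe sets enter where the setting says so. No called gene changed direction. The 7 named differences between the compounds kept their call in 18 pairs of gene and setting and lost it in 38. Medians of 320 list settings moved by less than the spread between lines, and 2 moved more, both without MM.1s: interferon response genes to -0.01 and markers of other cell types to -0.22. Dim probe sets and 4 lines limit what can be seen.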
